A study of Mus musculus with 48 samples.

Results

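These results concern the genotype effect on the first 45 min after release from mitosis in mouse embryonic stem cells (strain 129S5/SvEvBrd). The quantity is the change between 0 and 45 min in Smarce1-MD cells minus the same change in Smarce1-MD(R42A) cells. It rests on the 16 libraries taken at 0 and 45 min, out of 48 in the series. Newly made RNA, tagged with 5-ethynyluridine, a uridine analogue, was captured by click chemistry and sequenced. The groups were MD at 0 min, MD at 45 min, R42A at 0 min and R42A at 45 min, with 4 libraries each. All were held in 100 ng/ml nocodazole, a microtubule poison that stops cells in mitosis, for 6 h, shaken off and washed free of the drug. MD cells carry SMARCE1 in a form set up for degradation in mitosis (clones MD09 and MD30), and R42A cells carry the R42A form of the same construct (clones A04 and A10), taken here as the control. Each genotype is thus known from 2 clones, with 2 libraries per clone and time. The sources used here do not say if those 2 libraries are from different cultures, nor which promoter drives the construct.

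SMARCE1 (BAF57) is a subunit of the SWI/SNF (BAF) complex, which moves or evicts nucleosomes with energy from ATP and so opens promoters and enhancers. Transcription largely stops in mitosis and restarts as cells divide, in an order that differs between genes. Newly made RNA is the usual way to follow that restart, since older RNA carried through mitosis does not mask it.

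Counts assigned to features ranged from 815733 to 1022255 in MD and from 762327 to 896670 in R42A libraries at 0 min. At 45 min they ranged from 1634204 to 2782686 in MD and from 2307748 to 2572023 in R42A libraries, so the earlier time is measured less precisely in both genotypes. Levels below are CPM, counts divided by library size. They are not divided by length, so they compare samples and not genes. Levels of a named feature in single libraries were also scaled over the 16 libraries. Values per clone or group come from the summed libraries of each clone, scaled over all sums in the fit. They are therefore not on the scale of the single libraries. Marker sums are the counts of a list in a library divided by the size of that library. Changes are log2 values with their standard error from edgeR's quasi-likelihood test on the summed libraries of each clone, with Benjamini-Hochberg adjusted p over all features tested. A positive interaction means more gain, or less loss, in MD cells. Rises, falls and interactions are relative to the other features of the same libraries, because counts were scaled to library size. They do not give the amount of RNA made per cell. Markers of embryonic stem cells summed to 823 to 1157 CPM in MD and 1127 to 1354 CPM in R42A libraries at 0 min, and to 566 to 906 CPM in MD and 794 to 1087 CPM in R42A libraries at 45 min, although Sox2 had 0 counts in the 16 libraries. Mesoderm markers summed to 51.9 to 64.7 CPM in MD and 26.6 to 35.8 CPM in R42A libraries at 45 min, without overlap. At 0 min they summed to 34.2 to 43.0 CPM in MD and 17.8 to 34.1 CPM in R42A libraries, ranges that all but touch. Of the 8 mesoderm markers 5 were tested, and none had an interaction call. Trophoblast markers summed to 33.3 to 46.5 CPM in MD and 15.7 to 27.9 CPM in R42A libraries at 0 min, without overlap, and to 54.9 to 64.8 CPM in MD and 43.9 to 66.9 CPM in R42A libraries at 45 min, with overlap. The sums of neural, endoderm and fibroblast markers overlapped between the genotypes at both times. The part of these differences in the results was not tested.

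Many reads were credited to a feature lying on the strand opposite to a gene expected to be active. Over the 16 libraries Filip1l held 48871 counts and Cmss1, whose locus encloses it on the other strand, 2635, and Xist held 42996 and its antisense partner Tsix 397. Lrrc4 held 43301 and Snd1, which encloses it, 2936, and Angpt2 held 24764 and Mcph1, which encloses it, 2212. Features overlapped by a gene on the other strand made up 31.1% of annotated features and held 69.4% of the counts. The sources used here do not give the strand setting of the counting. Each value is therefore a count credited to a feature of that name, and reads of a gene and of its partner on the other strand cannot be told apart. Whether reads were counted on the opposite strand was not tested. Named features with no annotated gene on the other strand are not exempt, since the strand of their counts is not known either. What a gene encodes is given below as background, not as a reading of its counts. Coordinates are mm10, GENCODE M21.

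Of 23505 features tested, 119 (0.506%) had an interaction at an adjusted p under 0.05. It was positive for 39 (0.166%) and negative for 80 (0.34%). The count depended strongly on how the libraries were used. With only the 0 and 45 min sums in the fit 218 were positive and 482 negative, with the 90 min sums added 22 and 12, and with the 16 libraries fitted singly 51 and 27. Without a term per clone 1 was positive and 0 negative (2368 features had an unadjusted p under 0.05), without clone MD09 the counts were 3 and 1, and without clone MD30 they were 11 and 1. With features overlapped by a gene on the other strand left out, 7 were positive and 4 negative, of 39 calls that could still be tested. Negative calls outnumbered positive ones in the fit of 20 sums, but not in the fit of 16 single libraries or of 24 sums, so no balance of directions is read from the counts. Of the 119 features, 56 were also called from 16 single libraries and 34 from 24 sums. A set of 30 features, 19 positive and 11 negative, was called in all 4 of these choices of samples. Apart from Pdss1, a called feature below that the selection given under the processing does not cover was taken from these 30 after the values were seen.

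**Figure D1:**
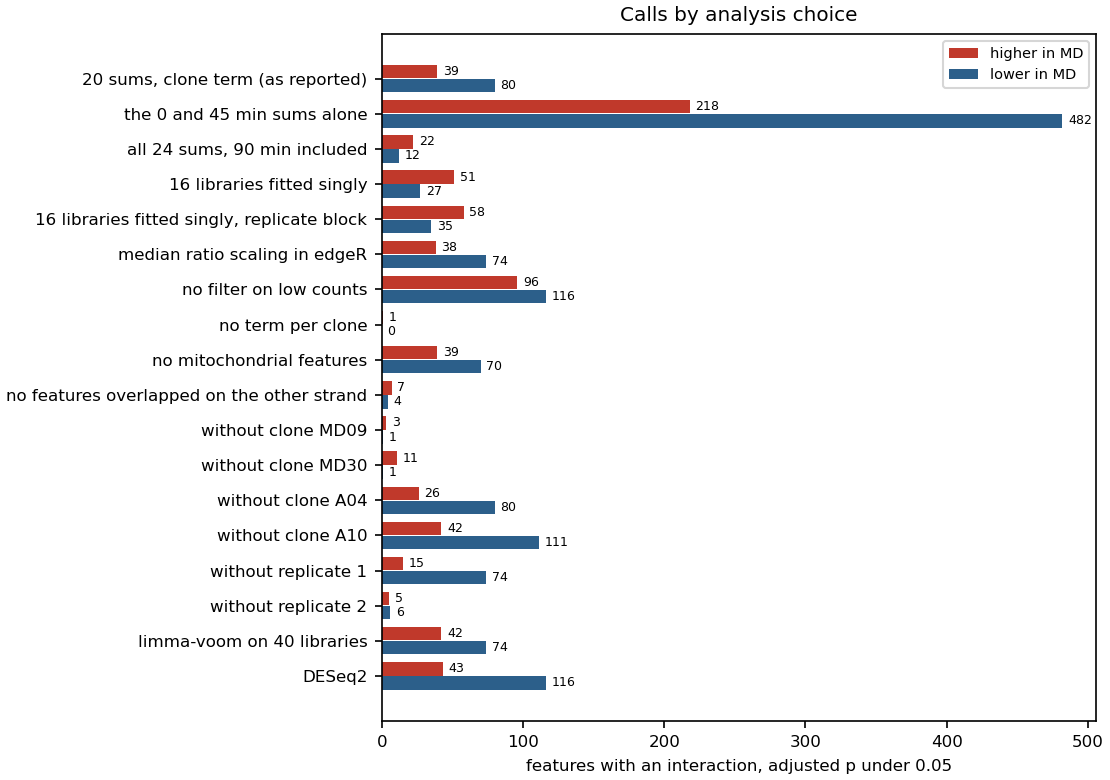
Number of features with an interaction past an adjusted p of 0.05, positive (red) and negative (blue), for the fit of 20 sums as reported (39 and 80) and for each alternative except the single libraries left out. The bar for no mitochondrial features also leaves out CT010467.2. Counts run between 1 and 0 without a term per clone and 218 and 482 with the 0 and 45 min sums alone.

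In MD cells 4805 features (20.4%) rose and 5224 (22.2%) fell between 0 and 45 min, and in R42A cells 5831 (24.8%) rose and 5791 (24.6%) fell. These are changes in share of the counts, and the median change over all features was -0.02 in both genotypes. A fall is thus not a loss of transcription per cell. A rise was called in both genotypes for 3950 features, a fall in both for 3981, and neither in either genotype for 9800. The median interaction over all features was -0.05, with an interquartile range of -0.43 to 0.34. The median standard error of an interaction was 0.44, and 0.24 among features of at least 5 on the log2 CPM scale. The smallest called interaction was 0.68 in size, and smaller genotype effects gave no call at this depth. Over features, the difference between the changes of MD09 and MD30 had an SD of 0.73, that between A04 and A10 an SD of 0.79, and that between the genotype means an SD of 0.63. These SDs hold counting error as well, and the last is over means of 2 clones.

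The 119 calls fell into a few patterns, described here without a test because the same libraries chose the calls. Among the 39 positive features, 20 fell in R42A cells with no call in MD cells, 10 fell in both, 5 rose in MD and fell in R42A cells, and 4 rose in MD cells with no call in R42A cells. Among the 80 negative features, 38 rose in both genotypes, 26 rose in R42A cells with no call in MD cells, 10 fell in MD cells with no call in R42A cells, 5 fell in MD and rose in R42A cells, and 1, Pdss1, fell in both. The common forms were thus a fall that was smaller in MD cells, and a rise that was smaller in MD cells. These forms are not particular to the calls. Among features without an interaction call, 3912 rose in both genotypes (median interaction -0.30) and 3970 fell in both (0.12). Another 1848 rose and 1782 fell in R42A cells with no call in MD cells, while 843 rose and 1226 fell in MD cells with no call in R42A cells.

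**Figure D2:**
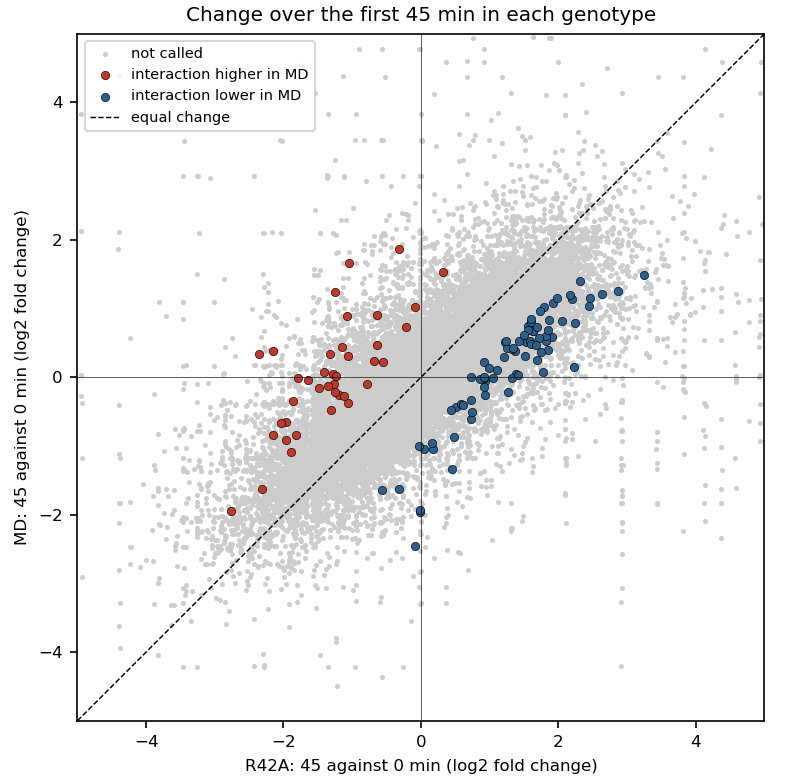
Log2 fold change at 45 against 0 min in MD cells (vertical) and R42A cells (horizontal), 1 point a feature, with 170 of 23505 features outside the range shown, 1 of them called (Fosl2). Red points (39) have a positive and blue points (80) a negative interaction, and the dashed line marks an equal change in both genotypes.

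The gene with the smallest p was Ank1 (chromosome 8, 22974844 to 23150497), which encodes ankyrin-1, a protein that ties membrane proteins to the spectrin skeleton. Its MD libraries at 0 min held 24.4 and 23.7 CPM (MD09) and 36.4 and 29.4 CPM (MD30), and those at 45 min held 46.9, 74.2, 48.3 and 48.6 CPM. Its R42A libraries at 0 min held 193 and 148 CPM (A04) and 235 and 235 CPM (A10), and those at 45 min held 86.7, 76.1, 119 and 117 CPM. MD libraries lay below R42A libraries at both times, and the levels moved in opposite directions. Ank1 rose in MD cells (log2 0.89 ± 0.18, adjusted p = 0.000113) and fell in R42A cells (-1.08 ± 0.14, adjusted p = 1.82e-08). Its summed R42A counts were 642 at 0 min and 931 at 45 min, so that fall is one of share. The interaction was 1.97 ± 0.23 (adjusted p = 1.77e-06) and was called in 31 of 32 alternatives, all but the fit without a term per clone. Ank1 is overlapped by 3 genes on the other strand, so it falls outside the rule for named features.

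The feature called in all 32 alternatives that tested it was Gm19461, annotated as antisense to Plekha6 (chromosome 1, 133250398 to 133269808). Its MD libraries held 43.9, 44.6, 51.2 and 40.5 CPM at 0 min and 35.1, 56.4, 50.6 and 40.7 CPM at 45 min. Its R42A libraries held 98.3, 81.7, 94.5 and 75.4 CPM at 0 min and 20.3, 24.2, 24.7 and 36.0 CPM at 45 min. The MD libraries of the 2 times overlap, whereas the R42A libraries do not. The interaction was 1.78 ± 0.24 (adjusted p = 3e-05). The whole of its exons lies inside Plekha6, so a count on Plekha6 RNA could not be told apart from a count on Gm19461.

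Gria1 (chromosome 11, 57011387 to 57330244), an AMPA-type glutamate receptor subunit, held 36.6, 55.1, 53.1 and 54.0 CPM in MD libraries at 0 min and 28.1, 52.2, 45.6 and 33.7 CPM at 45 min. In R42A libraries it held 27.7, 30.3, 29.8 and 42.7 CPM at 0 min and 12.6, 6.92, 7.82 and 10.3 CPM at 45 min. All MD libraries lay above all R42A libraries at 45 min, while the genotypes overlapped at 0 min. It fell in R42A cells (-1.86 ± 0.24) and was not called in MD cells (-0.34 ± 0.18, adjusted p = 0.115), with an interaction of 1.52 ± 0.29 (adjusted p = 0.00817). It was called in 29 of 33 alternatives.

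Iqsec3 (chromosome 6, 121372933 to 121473678), an exchange factor for ARF GTPases at inhibitory synapses, had the largest positive interaction among features the rule allows. Its MD libraries held 4.87, 3.80, 5.90 and 12.3 CPM at 0 min and 12.9, 24.9, 25.9 and 19.2 CPM at 45 min. Its R42A libraries held 8.31, 17.5, 8.70 and 17.6 CPM at 0 min and 4.97, 4.76, 6.58 and 9.86 CPM at 45 min. It rose in MD cells (1.66 ± 0.32) and fell in R42A cells (-1.05 ± 0.34), and the MD libraries of 45 min all lay above the R42A libraries of 45 min. The interaction was 2.71 ± 0.47 (adjusted p = 0.0051), from sums of 24 and 201 counts in MD and 42 and 61 counts in R42A cells at 0 and 45 min.

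Tacr3 (chromosome 3, 134829007 to 134934579), the neurokinin 3 receptor, had an interaction of 2.53 ± 0.48 (adjusted p = 0.00797) that rests on few counts. Its R42A libraries at 0 min held 1.38 and 26.8 CPM for A04 and 36.1 and 5.03 CPM for A10, so the libraries of each clone lay far apart. Fitted as single libraries it was not called (adjusted p = 0.287).

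Map3k14 (chromosome 11, 103219762 to 103267472) encodes NIK, the kinase of the noncanonical NF-kappaB pathway. Its MD libraries held 23.1, 22.8, 21.6 and 17.2 CPM at 0 min and 39.2, 39.6, 46.7 and 42.5 CPM at 45 min. In R42A libraries it held 13.8, 28.0, 28.6 and 18.8 CPM at 0 min and 13.1, 14.7, 16.5 and 16.3 CPM at 45 min. The genotypes overlapped at 0 min and stood apart at 45 min. It rose in MD cells (0.91 ± 0.19) and fell in R42A cells (-0.64 ± 0.22), with an interaction of 1.54 ± 0.29 (adjusted p = 0.00797).

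Dupd1, a dual specificity phosphatase gene, fell in R42A cells alone by call (-1.41 ± 0.22), with an interaction of 1.49 ± 0.29 (adjusted p = 0.00849). Its MD libraries held 29.0 to 51.8 CPM at 45 min and its R42A libraries 14.3 to 19.8 CPM. Cldn14, a tight junction claudin, rose in MD cells (1.03 ± 0.18) and was not called in R42A cells (-0.08 ± 0.18, adjusted p = 0.723), and its interaction was 1.11 ± 0.26 (adjusted p = 0.0301). Mgmt, which removes alkyl groups from guanine in DNA, had an interaction of 1.16 ± 0.29 (adjusted p = 0.0415). It was called in only 13 of 33 alternatives. Epas1, which encodes the hypoxia-inducible factor HIF-2alpha, fell in both genotypes but less in MD cells (-0.37 ± 0.12) than in R42A cells (-1.07 ± 0.12), with an interaction of 0.70 ± 0.17 (adjusted p = 0.0418), called in 15 of 33 alternatives and not from 24 sums (adjusted p = 0.145). Hsbp1l1 had an interaction of 0.78 ± 0.19 (adjusted p = 0.0415), called in 17 of 33 alternatives and not from 24 sums (adjusted p = 0.118). Only 9 positive features met the rule, and these are all of them.

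**Figure D3:**
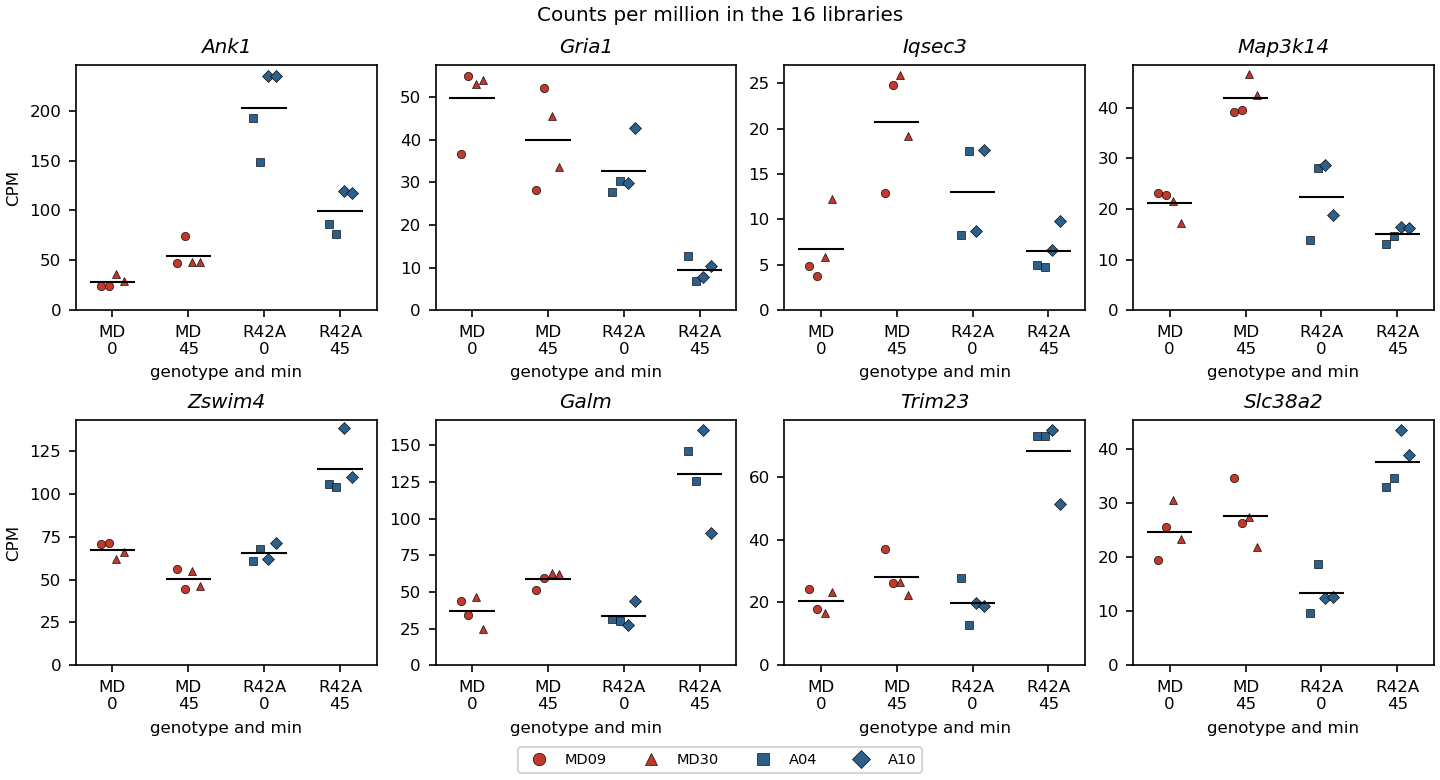
CPM of 8 features in the 16 libraries (vertical axis from 0), with MD left of R42A and 0 left of 45 min in each panel, 1 point a library, shaped by clone, and a line at the mean of 4 libraries. For Gria1, Iqsec3, Map3k14, Zswim4, Galm and Trim23 the MD and R42A libraries of 45 min do not overlap, and their libraries of 0 min do. The features were chosen by their interaction in these same libraries, so the separation is a description and no support for the calls.

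Other positive features of the 30 overlap a gene on the other strand. Tenm2, a teneurin cell adhesion gene, held 82.0 to 127 CPM in MD and 29.3 to 40.7 CPM in R42A libraries at 45 min, with an interaction of 1.22 ± 0.25 (adjusted p = 0.013). Tmem132d had an interaction of 1.33 ± 0.24 (adjusted p = 0.00533), with 37.8 to 45.3 CPM in MD and 65.9 to 102 CPM in R42A libraries at 0 min. Cobl, an actin nucleator, and Epb41l1, a membrane skeleton gene, had interactions of 1.11 ± 0.23 and 0.95 ± 0.20. The genotypes overlapped at 45 min for both. Cobl held 63.3 to 104 CPM in MD and 51.4 to 73.5 CPM in R42A libraries. Epb41l1 held 158.8 to 293 CPM in MD and 91.3 to 159.4 CPM in R42A libraries. The highest value of each belongs to MD09 45 min replicate 2. Abcc6, an ABC transporter gene, rose in MD cells (1.53 ± 0.18) and was not called in R42A cells (0.32 ± 0.21), with an interaction of 1.21 ± 0.29 (adjusted p = 0.0351). Phactr1, an actin and phosphatase regulator, had 1.36 ± 0.30, and Hk3, a hexokinase gene, 1.66 ± 0.35.

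Negative features were mostly those that rose in R42A cells. Zswim4 (chromosome 8, 84210678 to 84237055), a zinc finger gene, held 70.7, 71.2, 62.0 and 66.2 CPM in MD libraries at 0 min and 56.2, 44.5, 54.8 and 46.3 CPM at 45 min. Its R42A libraries held 60.9, 67.7, 62.2 and 71.6 CPM at 0 min and 106, 104, 138 and 110 CPM at 45 min. The genotypes overlapped at 0 min and stood apart at 45 min. Zswim4 fell in MD cells (-0.51 ± 0.16) and rose in R42A cells (0.74 ± 0.15), with an interaction of -1.25 ± 0.22 (adjusted p = 0.0051), called in 29 of 33 alternatives.

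Galm (chromosome 17, 80127471 to 80185101), the galactose mutarotase of sugar metabolism, held 43.9, 34.2, 46.3 and 24.5 CPM in MD libraries at 0 min and 51.6, 59.5, 63.0 and 62.2 CPM at 45 min. In R42A libraries it held 31.9, 30.3, 27.4 and 44.0 CPM at 0 min and 146, 126, 160 and 90.0 CPM at 45 min. It rose in both genotypes, by 0.59 ± 0.18 in MD and 1.91 ± 0.18 in R42A cells. The interaction was -1.32 ± 0.25 (adjusted p = 0.00817).

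Trim23 (chromosome 13, 104178797 to 104203372), a ubiquitin ligase gene, held 24.4, 18.05, 16.7 and 23.3 CPM in MD libraries at 0 min and 36.9, 26.3, 26.6 and 22.4 CPM at 45 min. Its R42A libraries held 27.7, 12.8, 19.9 and 18.8 CPM at 0 min and 73.1, 73.1, 74.9 and 51.4 CPM at 45 min. It rose in R42A cells (1.75 ± 0.20) and was not called in MD cells (0.37 ± 0.21, adjusted p = 0.155), with an interaction of -1.38 ± 0.30 (adjusted p = 0.0182). It was not called from 16 single libraries or 24 sums.

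Slc38a2 (chromosome 15, 96687392 to 96699730), a transporter of neutral amino acids, held 19.5, 25.6, 30.5 and 23.3 CPM in MD libraries at 0 min and 34.6, 26.3, 27.4 and 22.0 CPM at 45 min. In R42A libraries it held 9.69, 18.7, 12.4 and 12.6 CPM at 0 min and 33.0, 34.6, 43.6 and 39.0 CPM at 45 min. MD libraries lay above R42A libraries at 0 min, and the genotypes overlapped at 45 min. The interaction was -1.38 ± 0.31 (adjusted p = 0.025), and it too was not called from 16 single libraries or 24 sums.

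Other negative features of the rule rose in both genotypes, but less in MD cells. Rtn2, a reticulon of the endoplasmic reticulum, rose by 1.21 ± 0.20 in MD and 2.64 ± 0.23 in R42A cells. Zbtb48, which encodes a telomere-binding zinc finger protein, rose by 1.16 ± 0.20 in MD and 2.46 ± 0.22 in R42A cells. Car11, a carbonic anhydrase relative, rose by 1.49 ± 0.24 in MD and 3.24 ± 0.29 in R42A cells, with 12.2 ± 2.66 CPM in MD and 5.48 ± 2.66 CPM in R42A clones at 0 min (SD, n = 2 clones). Rufy1, an endosomal effector gene, rose by 1.20 ± 0.14 in MD and 2.17 ± 0.15 in R42A cells. Cep68, a centrosome linker gene, rose by 0.75 ± 0.12 in MD and 1.55 ± 0.12 in R42A cells. Their interactions were -1.43 ± 0.34, -1.30 ± 0.32, -1.75 ± 0.43, -0.97 ± 0.21 and -0.80 ± 0.17. Of these 5, Cep68 alone was called from 16 single libraries (adjusted p = 0.0341), and none was called from 24 sums.

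Fewer negative features fell in MD cells. Zp3r, known for a sperm acrosome protein, held 1.76 to 4.21 CPM in MD and 10.3 to 16.7 CPM in R42A libraries at 45 min, and 10.96 to 15.2 CPM in MD and 5.84 to 18.8 CPM in R42A libraries at 0 min. Its interaction was -1.93 ± 0.42 (adjusted p = 0.0187), and it was not called from 16 single libraries (adjusted p = 0.0562) or 24 sums (adjusted p = 0.104). Mettl21c, a lysine methyltransferase gene of muscle, fell in MD cells (-1.04 ± 0.21) and was not called in R42A cells (0.17 ± 0.20), with an interaction of -1.21 ± 0.29 (adjusted p = 0.0347). Mettl21c was called in 13 of 33 alternatives, and not from 16 single libraries (adjusted p = 0.101) or 24 sums (adjusted p = 0.113). A rise in R42A cells with no call in MD cells was found for Ikbip, Tfeb and Pisd-ps1. Ikbip (-1.70 ± 0.42, adjusted p = 0.0452) and Tfeb (-1.02 ± 0.25, adjusted p = 0.0415), a transcription factor gene of lysosome biogenesis, each held their call in 10 alternatives. Pisd-ps1, an unprocessed pseudogene of Pisd that may share reads with its parent, had -2.08 ± 0.51 (adjusted p = 0.0415) from 9 counts in R42A cells at 0 min.

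Of the 11 negative features among the 30, Pde6d, a chaperone of prenylated proteins, rose in both genotypes (1.04 ± 0.17 in MD and 2.45 ± 0.17 in R42A cells). It held 112 to 195 CPM in MD and 328 to 522 CPM in R42A libraries at 45 min, and 38.9 to 89.6 CPM in MD and 45.5 to 80.4 CPM in R42A libraries at 0 min. Its interaction was -1.40 ± 0.25 (adjusted p = 0.00533). Prss12, which encodes neurotrypsin, had -1.20 ± 0.23, Etfrf1 -1.34 ± 0.26 and Gpbp1l1 -1.30 ± 0.27. Lockd, a long noncoding RNA, fell in MD cells (-1.63 ± 0.19) and was not called in R42A cells (-0.31 ± 0.18).

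Smarce1 itself (chromosome 11, 99209047 to 99231017) had no call. Its MD libraries held 25.6, 33.2, 24.6 and 29.4 CPM at 0 min and 34.6, 33.3, 20.9 and 29.9 CPM at 45 min. Its R42A libraries held 45.7, 38.5, 37.3 and 36.4 CPM at 0 min and 55.1, 60.6, 58.4 and 49.3 CPM at 45 min. MD libraries lay below R42A libraries at both times. It rose in R42A cells (0.45 ± 0.17) and was not called in MD cells (-0.03 ± 0.19), but the interaction of -0.48 ± 0.26 did not pass the threshold (adjusted p = 0.448). The construct acts on the protein, so these RNA levels do not check its loss.

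**Figure D4:**
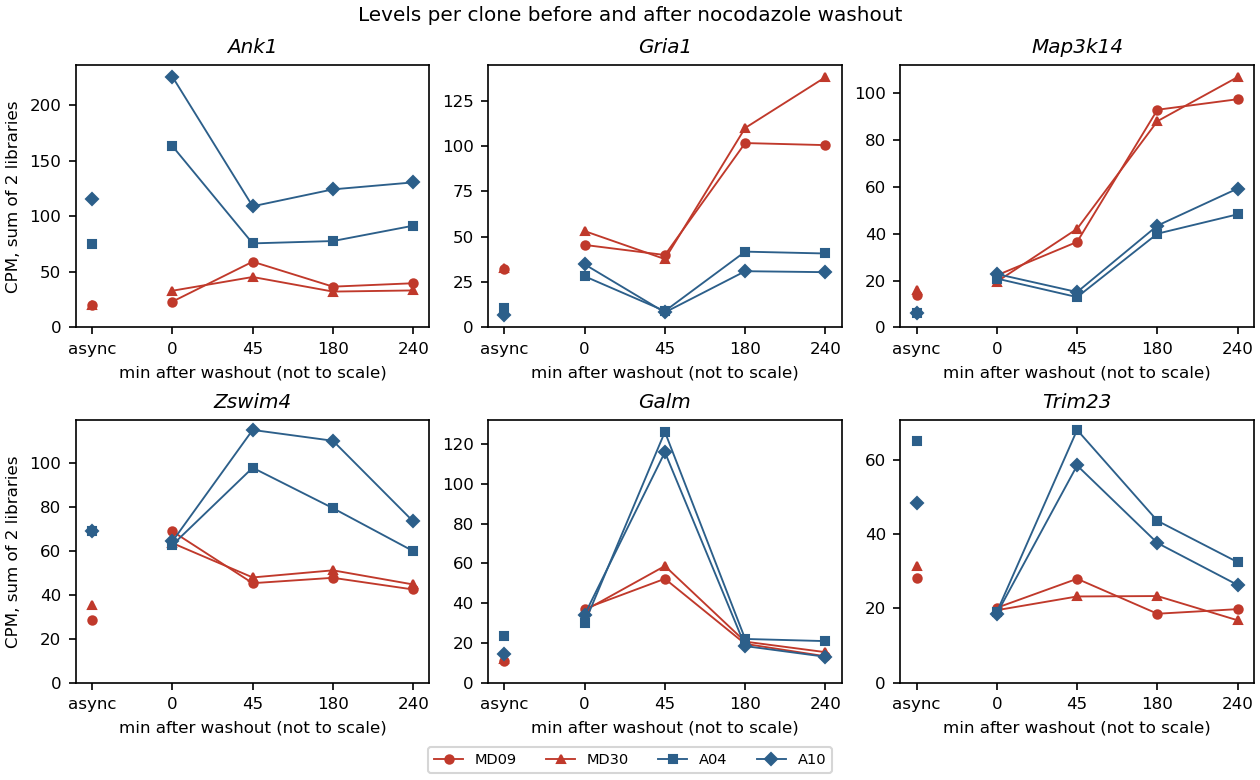
CPM of 6 features per clone (summed over 2 libraries) in asynchronous cells and at 0, 45, 180 and 240 min after washout, the time axis not to scale, with MD clones in red and R42A clones in blue. Galm stood at 52.3 and 58.7 CPM in MD09 and MD30 and 126 and 116 CPM in A04 and A10 at 45 min, and at 19.5 and 20.6 CPM in MD09 and MD30 and 22.0 and 18.4 CPM in A04 and A10 at 180 min.

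The other times of the course show where else the genotypes stood apart. In asynchronous cells Map3k14 stood at 14.1 and 15.9 CPM in MD09 and MD30 and at 6.08 and 6.05 CPM in A04 and A10, and at 180 min at 92.8 and 88.0 CPM in MD09 and MD30 and at 39.99 and 43.4 CPM in A04 and A10. Galm stood at 11.03 and 11.9 CPM in MD09 and MD30 and at 23.3 and 14.3 CPM in A04 and A10 in asynchronous cells, and overlapped between the genotypes at 180 min. Gria1 stood at 32.3 and 32.6 CPM in MD09 and MD30 and at 10.6 and 7.15 CPM in A04 and A10 in asynchronous cells. Zswim4 stood there at 28.4 and 35.4 CPM in MD09 and MD30 and at 68.9 and 68.7 CPM in A04 and A10. Trim23 stood there at 28.1 and 31.5 CPM in MD09 and MD30 and at 65.1 and 48.4 CPM in A04 and A10, and Ank1 at 19.9 and 20.1 CPM in MD09 and MD30 and at 75.5 and 116 CPM in A04 and A10. For all 6 plotted features the clones of the genotypes did not overlap in asynchronous cells, in the same direction as at 45 min. These features were chosen by their interaction, and the share of all features standing apart in asynchronous cells was not worked out. By the change that the interaction compares, 44.8% of all tested features had the clones of the genotypes apart. That is a different measure, and it gives no background for levels in asynchronous cells. Other called features did not all follow the 6. In asynchronous cells Dupd1 stood at 106 and 184 CPM in MD09 and MD30 and at 208 and 209 CPM in A04 and A10. That direction was the reverse of the one at 45 min. For Iqsec3 the genotypes overlapped in asynchronous cells. Its values were 1.4 and 3.1 CPM in MD09 and MD30 and 4.1 and 1.9 CPM in A04 and A10. The separation in asynchronous cells is thus a description and no support for the calls.

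Of 25 lists of genes by function, chosen with earlier results known, 24 held no call, against 0.506% of all features. The exception was immediate early and serum response genes, with 0 positive and 1 negative among 26 tested and a median interaction of -0.30, against -0.05 over all features. That member was Fosl2, an AP-1 subunit, which had 0 counts in the 4 R42A libraries of 0 min, 20 counts in MD libraries of 0 min (12, 2, 2 and 4), and 51 in MD and 37 in R42A libraries of 45 min. Its fitted interaction of -6.98 (adjusted p = 0.0415) is no bound on the size, because it depends on how a group at 0 is treated, and it was called in 10 of 30 alternatives. The call was lost without MD09 0 min replicate 1, which held 12 of the 20 counts. Maff, another AP-1 partner, rose by 0.75 in MD and 1.42 in R42A cells, with an interaction of -0.66 ± 0.25 (adjusted p = 0.234). The highest interaction of the list went the other way, at 1.01 for Jun, which was not called. At an unadjusted p under 0.05, 2 of the 26 were negative (against 7.87% of all features) and 0 positive (against 4.84%).

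None of 31 SWI/SNF subunits was called, with a median interaction of -0.19 and 3 negative and 0 positive at an unadjusted p under 0.05. Over all features tested, 1851 (7.87%) were negative and 1137 (4.84%) positive at that p. The lowest p there belonged to Smarcc2, a core scaffold subunit, which rose by 0.84 in MD and 1.33 in R42A cells (interaction -0.49 ± 0.22, adjusted p = 0.335). Pluripotency genes numbered 28 tested, with a median of -0.02. The largest effect by p was for the nuclear receptor gene Nr5a2, at -0.71 ± 0.22 (adjusted p = 0.133). Among 76 ribosomal protein genes, 52 fell in MD and 60 in R42A cells, with a median interaction of 0.23 and no call. The 7 BMP targets tested, among them Id1, Id2 and Smad7, had a median of 0.44, with 3 positive (against 4.84% of all features) and 0 negative at an unadjusted p under 0.05. The 19 genes of cohesin, CTCF and condensin had a median of -0.29, with 4 negative (against 7.87% of all features) and 0 positive at an unadjusted p under 0.05. The 31 G2/M genes had a median of 0.13 and 20 p53 targets a median of -0.28. With the 0 and 45 min sums alone, single members such as Nr5a2, Sall4, Smc4 and Pds5a were called, and none of these was called in the fit of 20 sums.

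Called features differed from all tested ones in length, level and neighbours, given as descriptions. Protein-coding features with a positive interaction had a median length of 120116 bases, against 34676 for negative ones, 25600 for all tested and 33809 for tested features whose highest group reached 50 CPM. The median of the highest group was 84.2 CPM for positive, 122 CPM for negative and 15.9 CPM for all tested features. A gene on the other strand overlapped 73.7% of positive and 65.8% of negative features with a position, against 52.5% of all tested and 70.1% of those of at least 50 CPM. A protein-coding gene facing the 3' end from the other strand within 10000 bases was present for 13.2% of positive and 41.8% of negative features, against 21.4% of all tested and 28.2% of those of at least 50 CPM. Examples are Cep68, whose 3' end lies 181 bases from that of Rab1a, Trim23 at 1752 bases from Ppwd1 and Rufy1 at 2758 bases from Hnrnph1. With counts added up over the features that lie wholly within 1 gene of the opposite strand, 30 such genes had a positive and 27 a negative interaction of 2735 tested, an alternative chosen after the data were seen.

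Promoters were read for 4 named features that moved differently by genotype, to show the sequence around their start sites, from 250 bases before to 50 after it (RefSeq, GRCm38.p6, 5′ to 3′ on the strand of the gene). Capitals mark any match, on either strand, to 1 of 6 motifs, which were the AP-1 site (TGANTCA), the cyclic AMP response element or CRE (TGACGTCA), the TATA box (TATAAA), the CCAAT box (CCAAT), the E-box (CACGTG) and the GC box (GGGCGG). Iqsec3 (chr6:121473629-121473928, minus strand) and Map3k14 (chr11:103267352-103267651, minus strand) had a positive, and Zswim4 (chr8:84236993-84237292, minus strand) and Slc38a2 (chr15:96699679-96699978, minus strand) a negative interaction.
Iqsec3: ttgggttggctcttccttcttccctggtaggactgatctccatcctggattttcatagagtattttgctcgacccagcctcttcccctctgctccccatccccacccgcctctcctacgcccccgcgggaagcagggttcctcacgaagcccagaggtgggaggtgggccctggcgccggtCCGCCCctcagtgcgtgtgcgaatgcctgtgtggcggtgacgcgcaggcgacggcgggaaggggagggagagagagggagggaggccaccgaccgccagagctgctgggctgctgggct
Map3k14: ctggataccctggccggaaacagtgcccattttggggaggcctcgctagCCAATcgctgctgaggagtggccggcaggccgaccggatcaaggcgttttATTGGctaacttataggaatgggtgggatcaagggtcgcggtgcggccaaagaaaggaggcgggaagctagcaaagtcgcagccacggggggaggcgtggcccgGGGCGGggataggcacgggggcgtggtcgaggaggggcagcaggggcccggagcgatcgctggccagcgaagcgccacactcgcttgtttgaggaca
Zswim4: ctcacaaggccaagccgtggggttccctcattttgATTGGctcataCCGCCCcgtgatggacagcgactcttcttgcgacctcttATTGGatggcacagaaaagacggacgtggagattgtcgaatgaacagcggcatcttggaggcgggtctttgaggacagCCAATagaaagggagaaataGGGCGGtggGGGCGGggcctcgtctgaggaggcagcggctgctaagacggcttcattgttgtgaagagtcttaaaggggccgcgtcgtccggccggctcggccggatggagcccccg
Slc38a2: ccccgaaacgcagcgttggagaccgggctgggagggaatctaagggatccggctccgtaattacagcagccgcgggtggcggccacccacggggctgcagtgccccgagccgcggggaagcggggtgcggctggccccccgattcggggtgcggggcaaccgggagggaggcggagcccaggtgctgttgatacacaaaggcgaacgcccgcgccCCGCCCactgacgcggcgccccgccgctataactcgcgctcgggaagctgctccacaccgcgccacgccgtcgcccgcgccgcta

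Of the 119 features, 26 positive and 49 negative ones had a promoter in that table, as did 14307 of the 23505 tested. The GC box was present in 38.5% of positive, 63.3% of negative and 53.9% of all promoters. The CCAAT box was present in 23.1% of positive, 36.7% of negative and 37.6% of all promoters, and the TATA box in 11.5%, 8.2% and 8.7%. The AP-1 site was present in 3.8% of positive, 4.1% of negative and 5.9% of all promoters, and the E-box in 7.7%, 4.1% and 9.0%. The CRE was present in 2.7% of all promoters and in 0 of 26 positive and 0 of 49 negative ones. These shares are descriptions, and a missing match says only that the letters are not in this window.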

How the data were processed

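Nascent RNA libraries of 2 genotypes were compared at 0 and 45 min. The deposited files hold raw read counts per feature, which the authors left unnormalized. The submitters' processing notes name Trim Galore 0.60, STAR 2.7.1a, RSEM 1.3.0 and mm10, without a role or order. Rows that name no feature were left out (90.3 to 92.2% of reads in the 16 libraries fell in no feature). Libraries of a clone and time were summed, and 20 sums (all times but 90 min) were fitted with edgeR 4.0.16 in R 4.3.3 (robust quasi-likelihood test, TMM scaling, filterByExpr with a minimum count of 10 and total of 15, a term per clone, Benjamini-Hochberg threshold 0.05). The 90 min sums were left out because MD libraries there stood apart in earlier results of these data. That choice was thus made with the data known. Since libraries were summed, p-values of this fit reflect just how the changes over conditions differ between the 2 clones of a genotype. Fits of single libraries also use the spread between libraries of a clone. That spread may be technical, since separate cultures are not stated. Alternatives used limma 3.58.1 and DESeq2 1.42.0. Of 55291 symbols, 53186 matched 1 annotated gene.

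Named features passed the threshold, reached 10 CPM in a group, had both MD clones on 1 side of both R42A clones, and had no provisional name and no gene on the other strand. Of these the 10 largest per direction and the 3 of smallest p in each pattern of at least 10 features were taken. Smarce1, which had no call, and at most 4 called members per described list were added without these rules. Fosl2 thus appears although it stayed below 10 CPM. Other list members, such as Maff, Smarcc2 and Nr5a2, are named without a call. Members, lists and rules were chosen with earlier results of these data known, and features of the 30 called in 4 sample choices were added after their values were seen, except 1 that is not reported here.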

Additional observations from a re-analysis of the deposited data

Results flagged for a closer look

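The 46 named features below differed between the genotypes in their change from 0 to 45 min, by the test of the difference itself (edgeR's quasi-likelihood test, Benjamini-Hochberg adjusted p under 0.05). Values are log2 changes in MD minus those in R42A cells. Positive values were found for Iqsec3 (2.71), Tacr3 (2.53), Ank1 (1.97), Gm19461 (1.78), Hk3 (1.66), Gm16499 (1.58), Map3k14 (1.54) and Gria1 (1.52). Further values of the same sign were those of Dupd1 (1.49), Phactr1 (1.36), Tmem132d (1.33), Gm15337 (1.32), 9130230L23Rik (1.31), Gm26531 (1.31), Tenm2 (1.22) and Abcc6 (1.21). Further values of the same sign were those of Mgmt (1.16), Cldn14 (1.11), Cobl (1.11), Gm26604 (1.04), Epb41l1 (0.95), Hsbp1l1 (0.78) and Epas1 (0.70). Negative values were found for Fosl2 (-6.98), Pisd-ps1 (-2.08), Zp3r (-1.93), Car11 (-1.75), Ikbip (-1.70), 5031439G07Rik (-1.49), Rtn2 (-1.43) and Pde6d (-1.40). Further values of the same sign were those of Trim23 (-1.38), Slc38a2 (-1.38), Etfrf1 (-1.34), Galm (-1.32), Lockd (-1.32), Zbtb48 (-1.30), Gpbp1l1 (-1.29) and Zswim4 (-1.25). Further values of the same sign were those of Mettl21c (-1.21), Prss12 (-1.20), 1700016C15Rik (-1.19), Gm17334 (-1.05), Tfeb (-1.02), Rufy1 (-0.97) and Cep68 (-0.80). The value of Fosl2 depends on a group at 0 counts and is no bound.

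In 10 of 188 groups of 4 libraries (47 features), 1 library lay far from the other 3. Chance alone gives about 1 such group in 20. Among MD libraries at 0 min these were Abcc6 at 32.9 CPM and Gria1 at 36.6 CPM. Among MD libraries at 45 min they were Ank1 at 74.2 CPM, Gm16499 at 41.3 CPM, Tenm2 at 127 CPM and Ikbip at 9.37 CPM, and the first 3 of these values belong to MD09 replicate 2. Ikbip at 12.6 CPM stood out among R42A libraries at 0 min. Among R42A libraries at 45 min Gm15337 at 15.6 CPM, Tacr3 at 7.71 CPM and Trim23 at 51.4 CPM stood out.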

How the results depend on the processing

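The number of calls depended on the processing, while no called feature changed sign in an alternative that tested it. The alternatives reuse the libraries that chose the calls, so the shared sign is no separate support. Of 1487 checks of the 46 named features with a call over the alternatives, 1023 kept the call and 464 lost it. Positive and negative calls numbered 218 and 482 with the 0 and 45 min sums alone, 22 and 12 with all 24 sums, 51 and 27 from 16 single libraries, 96 and 116 with no filter on low counts, 1 and 0 with no term per clone, and 7 and 4 with no features overlapped on the other strand. That last choice left 2521 rises and 1877 falls in MD cells and 2650 rises and 2352 falls in R42A cells, from 11560 features. Asking for 1 log2 unit as well gave 27 and 47, and adding counts up per gene on the other strand gave 30 and 27. Median ratio scaling gave 38 and 74, limma-voom 42 and 74, and DESeq2 43 and 116. The causes of these shifts were not tested, beyond the fewer features or samples that an alternative holds.

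Leaving out a clone, a library or a replicate number gave 3 to 71 positive and 1 to 167 negative calls, both lowest without MD09 and highest without A10 45 min replicate 1. Rises in MD cells then numbered 2531 to 5323 and falls 2942 to 5808, and in R42A cells rises numbered 3784 to 6084 and falls 4139 to 5775. Without MD30 the calls were 11 and 1. Without MD09 45 min replicate 2, the deepest of the 16 libraries (2782686 counts), they were 18 and 82. Without replicate 1 they were 15 and 74, and without replicate 2 they were 5 and 6. With a replicate block the 16 libraries gave 58 and 35 calls. The numbers were not taken as pairs: the correlation of the replicate difference between 0 and 45 min was 0.222 in MD09, -0.0828 in MD30, -0.0841 in A04 and 0.107 in A10, over 12713 features. Depth at 0 min limits the precision of every change, and features of few counts are the least certain.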
